A study of Homo sapiens with 6 samples.

Results

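The genes described here make up the integrated stress response and the amino acid transport that it controls. They were chosen by symbol from a written list: 34 genes, all of which were present among the 24305 gene symbols of the deposited count table. They comprise 3 eIF2 kinases, 6 subunits of eIF2 and eIF2B, 7 transcription factors and 5 feedback regulators and related genes. The others are 3 enzymes, 2 secreted or surface proteins and 8 amino acid transporters. All 34 passed the filter on low counts and were tested.

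RNA came from DU 145, an established human epithelial prostate cancer line that the series treats as lacking homologous recombination repair of DNA. The talazoparib group (n = 3 libraries) had received talazoparib, an inhibitor of the PARP enzymes, for 48 h. The control group (n = 3) carries the label DMOS for the same 48 h, read here as the solvent DMSO. The series design names 5, 10 and 20 µM of the drug, but which of these the sequenced cells received is not stated. Nothing in the labels says that replicates were separate cultures, so the p-values reflect library-to-library spread that may be technical only. Libraries held 39123997 to 39585727 counts. Values in CPM are counts relative to the library total after TMM scaling, and log2 fold changes are talazoparib over control. The epithelial keratins KRT8 and KRT18 averaged 557 and 577 CPM with talazoparib, against 583 and 526 CPM in control, and neither passed the test. Of the other epithelial markers, KRT19 was higher, at 91.4 CPM with talazoparib and 41.8 CPM in control (log2 fold change 1.13, edgeR adjusted p = 9.02e-06), while EPCAM (0.35) and CDH1 (-0.78) did not pass. The leukocyte genes PTPRC and CD3E had no count in any library. CD68, a lysosomal gene used as a macrophage marker, averaged 66.2 CPM with talazoparib and 25.9 CPM in control, and its part in the results was not tested.

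The integrated stress response is a common pathway by which cells slow protein synthesis under stress. Kinases that sense different stresses phosphorylate the alpha subunit of the initiation factor eIF2, which blocks eIF2B, the factor that recharges eIF2 with GTP. General translation falls while the mRNA of ATF4 is translated more, and ATF4 then induces genes for amino acid uptake and synthesis and for the shutdown of the response. Much of this control acts on phosphorylation and translation, which RNA counts do not measure.

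With talazoparib, 16 of the 34 genes rose, 8 fell and 10 did not pass at an adjusted p of 0.05 (quasi-likelihood test of edgeR, adjusted by Benjamini-Hochberg). Over all 14452 genes tested, 26.8% rose and 29.9% fell. Every talazoparib library lay above every control library for 16 of the 34 genes and below for 10, where this held for 31.6% and 32.8% of all genes tested. The median log2 fold change was 0.18 over the 34 genes and 0.00 over all genes tested. Stress-induced transcription factors, with the feedback regulators and related genes, accounted for 9 of the rises, NUPR1 with the largest. The kinases, EIF2S1, CEBPG, PPP1R15B, SLC7A11 and SLC38A1 fell. The libraries give the RNA of whole cultures, so a change in every cell and a change in the share of cells that carry an mRNA cannot be told apart.

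The genes that rose and those that fell differed in the base composition of their transcripts. The 16 genes that rose had transcripts of 49.7% to 66.2% GC (median 57.1%), and the 8 that fell had 35.4% to 47.3% (median 43.6%), so the ranges did not meet. Over the 34 genes the log2 fold change had a Spearman correlation of 0.76 with GC content and -0.48 with the deposited gene length. Over 13717 tested genes with both properties these were 0.69 and -0.45. All these points share the same 6 libraries. Because the trend runs through the whole transcriptome, each gene is also given its log2 fold change after the trend of each library over GC content and length was removed, called trend-removed here. In that fit 14 of the 34 genes passed as higher and 4 as lower (median 0.13), where 22.0% and 22.2% of all genes did. In both fits 12 genes passed in the same direction, and opposite calls were made for EIF2S1 and SLC1A5. Of the 13717 genes, 3592 passed both fits in the same direction and 539 had opposite calls. The part of base composition in the changes was not tested.

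**Figure D1:**
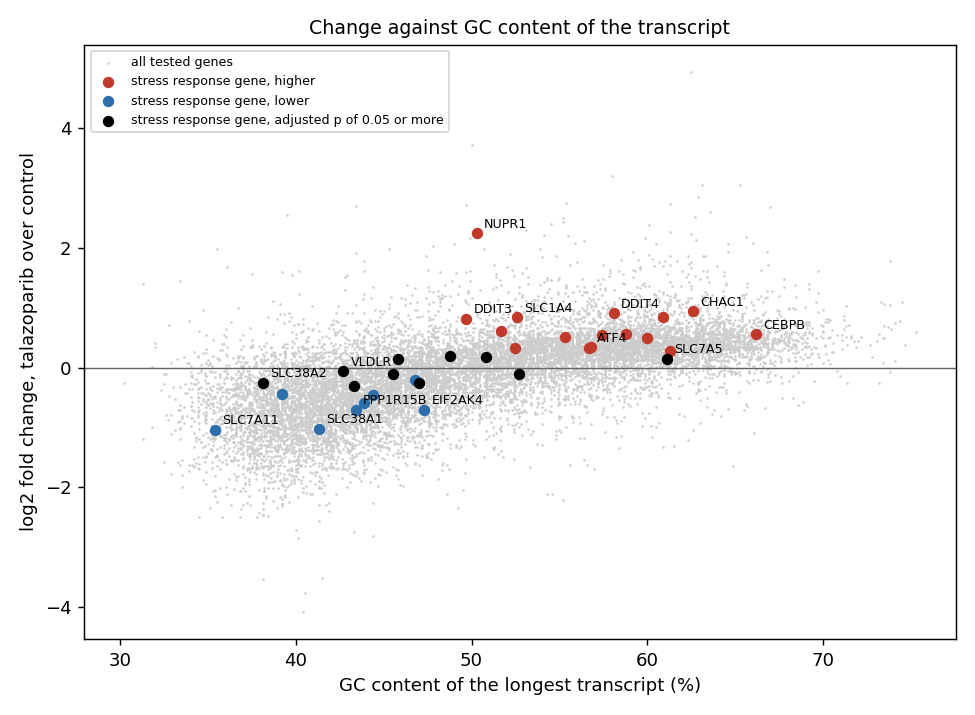
Log2 fold change (talazoparib over control) against the GC content (%) of the longest transcript, taken among protein-coding ones where there are any. Grey points are all tested genes with a GC value and coloured points the 34 stress response and transport genes. The red points (higher) lie at 49.7% GC or more and the blue points (lower) at 47.3% or less.

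The 24 genes that changed shared an order among the libraries. Control replicate 1 was the control nearest to the talazoparib group for 21 of them, and talazoparib replicate 2 was the talazoparib library farthest from control for 21 of them. The plot of CPM by library shows this for single genes. The same order was not counted over all genes, so it cannot be called particular to these 24. Over all genes tested, 3873 rose with every library kept and 3858 without control replicate 1. Without control replicate 2 or 3, 2715 and 2622 rose.

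**Figure D2:**
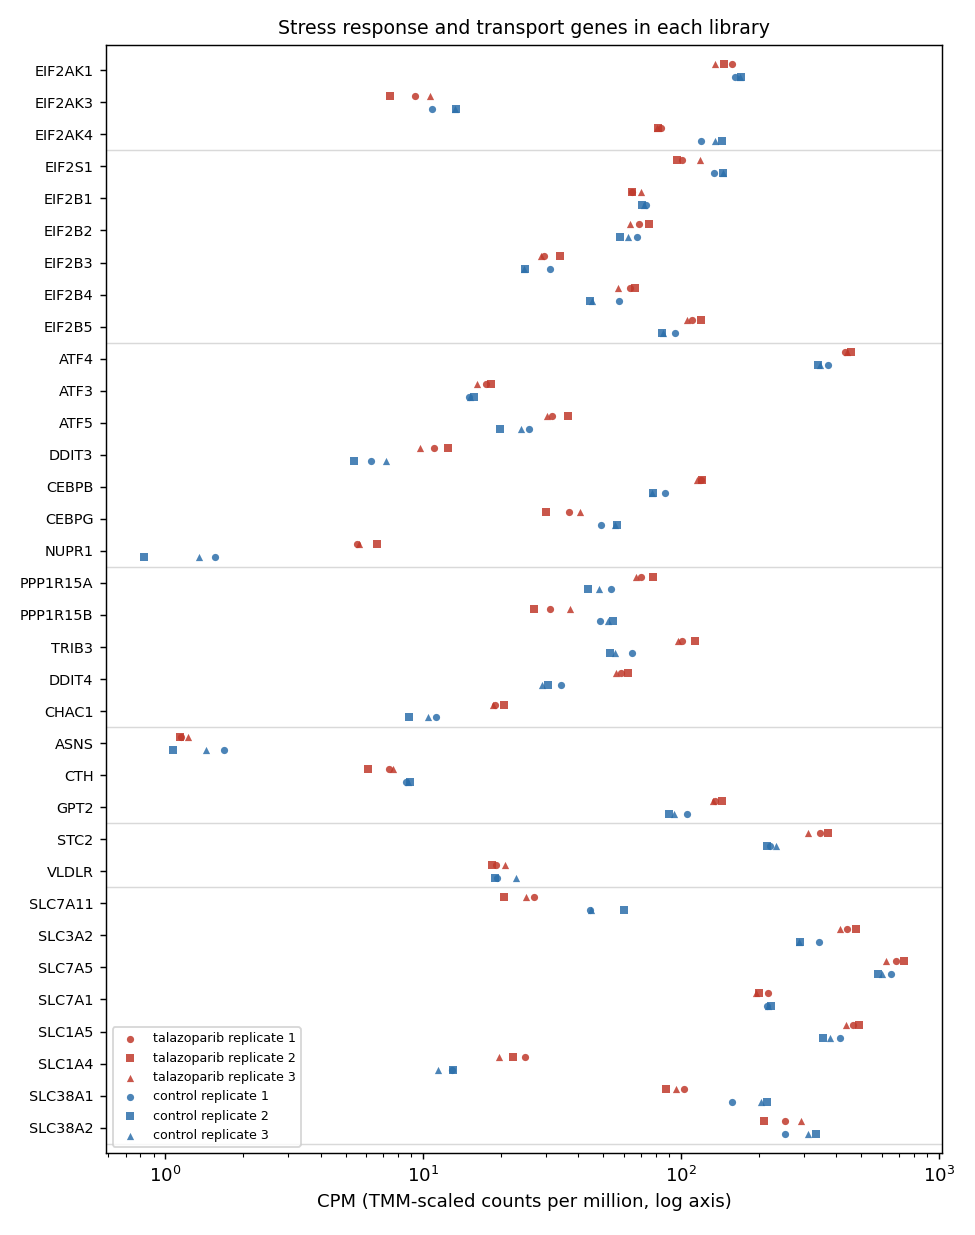
CPM (log axis) of the 34 genes in each library, red for talazoparib and blue for control, with a marker for each replicate number; grey lines separate the roles. NUPR1 and SLC7A11 show clear gaps between the groups, while the libraries of VLDLR, SLC38A2 and ASNS intermingle.

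All 3 eIF2 kinases among these genes were lower with talazoparib, where 29.9% of all genes tested fell. Trend-removed, 1 of them passed as lower, where 22.2% of all genes did. A further eIF2 kinase, EIF2AK2, belongs to the eIF2 regulator list described below. It fell without trend removal (log2 fold change -0.71, edgeR adjusted p = 0.00132) and was higher trend-removed (0.24, adjusted p = 0.0168). EIF2AK4, which encodes GCN2, the sensor of uncharged tRNA, had 83.9, 81.1 and 80.7 CPM with talazoparib, against 119, 144 and 136 CPM in control. The groups lay well apart, and the fall was also present trend-removed (log2 fold change -0.70 ± 0.08, SE, edgeR adjusted p = 3.99e-05, trend-removed -0.47). With GENCODE exon lengths the trend-removed value was -0.25 (adjusted p = 0.00200). EIF2AK3, which encodes PERK, the kinase of endoplasmic reticulum stress, had 9.29, 7.42 and 10.6 CPM with talazoparib, against 10.8, 13.4 and 13.3 CPM in control. The highest talazoparib library nearly reached the lowest control library (-0.46 ± 0.16, edgeR adjusted p = 0.0233, trend-removed -0.07, not past the test). EIF2AK1, the haem-regulated kinase, had 157, 147 and 135 CPM with talazoparib, against 162, 171 and 170 CPM in control. This was the smallest change that passed among the 34 genes (-0.20 ± 0.08, edgeR adjusted p = 0.0457, trend-removed 0.01). The EIF2AK1 call was lost without any talazoparib replicate or without control replicate 2 or 3 (log2 fold change -0.25 to -0.14), and that of EIF2AK3 without talazoparib replicate 1 or 2 or control replicate 2 or 3 (-0.47 to -0.33).

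The eIF2 alpha subunit itself, EIF2S1, had 101, 96.4 and 118 CPM with talazoparib, against 134, 146 and 146 CPM in control. It fell in the test without trend removal (-0.44 ± 0.09, edgeR adjusted p = 0.00116) and was higher trend-removed (0.18, adjusted p = 0.0277), and its transcript has 39.2% GC. GPHN covers all of its span in the RefSeq annotation, and how reads of overlapping genes were assigned is not given in the sources used here. In RefSeq, 11 of the listed genes overlap another gene of the count table. Of the 5 eIF2B subunits, 2 rose, where 26.8% of all genes tested did. The catalytic EIF2B5 had 110, 119 and 105 CPM with talazoparib, against 94.6, 84.6 and 85.1 CPM in control (0.33 ± 0.08, edgeR adjusted p = 0.00386). The regulatory EIF2B4 had 63.3, 66.4 and 56.7 CPM with talazoparib, against 57.4, 44.5 and 45.3 CPM in control (0.34 ± 0.11, edgeR adjusted p = 0.0174). The EIF2B4 groups overlapped through control replicate 1, and its call was lost without talazoparib replicate 1 or control replicate 2 or 3 (0.24 to 0.33). The long noncoding gene GTF3C2-AS2 covers 58.9% of the EIF2B4 span and had 203, 189 and 225 counts with talazoparib, against 181, 191 and 191 in control. Neither subunit passed trend-removed with the deposited lengths (0.12 for EIF2B5 and -0.08 for EIF2B4), but with GENCODE exon lengths EIF2B5 was higher (0.30, adjusted p = 0.00193). EIF2B1, EIF2B2 and EIF2B3 had log2 fold changes of -0.11, 0.15 and 0.20 and did not pass the test, trend-removed, EIF2B2 was higher (0.41, adjusted p = 0.00731). In FPKM, a level per length of gene, the eIF2B subunits spanned 12.1 (EIF2B3) to 40.5 (EIF2B5) with talazoparib and 11.1 to 33.8 in control, with the same subunits at the ends. Per kilobase of GENCODE exon bases EIF2B1 was instead the highest, at 17.9 CPM (unscaled) with talazoparib and 20.3 in control, and EIF2B5 had 15.1 with talazoparib and 12.6 in control.

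Among the transcription factors 5 of 7 rose, 1 fell and 1 did not pass, where 26.8% of all genes tested rose and 29.9% fell. Trend-removed, 3 of the 7 were higher and 1 lower, against 22.0% and 22.2% of all genes. ATF4 (GRCh38 chromosome 22, 39519695 to 39522685, plus strand), the factor at the centre of the response, had 432, 455 and 439 CPM with talazoparib, against 370, 339 and 346 CPM in control. The groups did not overlap, and the rise was modest (0.33 ± 0.07, edgeR adjusted p = 0.00176). Its trend-removed value depended on the length used: 0.27 (adjusted p = 0.00130) with the deposited length of 7716 nt, and -0.06 (adjusted p = 0.261) with the 2514 exon bases of GENCODE release 29. The deposited length is 2.58 times the 2991 bp that the whole gene spans in GENCODE, and those of CHAC1 (1.71 times) and CEBPB (1.08 times) also exceed the gene.

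DDIT3, which encodes CHOP, a factor induced by ATF4 and linked to cell death in prolonged stress, had 11.0, 12.5 and 9.71 CPM with talazoparib, against 6.27, 5.38 and 7.18 CPM in control. Every talazoparib library was above every control library, and the gene was higher in both fits (0.82 ± 0.16, edgeR adjusted p = 8.44e-04, trend-removed 0.61). In RefSeq LOC128125814 covers 70.5% of the DDIT3 span, and the count table has no row for it. NUPR1 (chromosome 16, 28532708 to 28539174, minus strand), a small stress-induced nuclear protein, had 5.52, 6.59 and 5.63 CPM with talazoparib, against 1.55, 0.827 and 1.35 CPM in control. The raw counts behind these were 212, 248 and 222 with talazoparib, against 61, 34 and 55 in control. This was the largest change of the 34 genes, near 5-fold (4.76-fold; log2 fold change 2.25, 95% confidence interval 1.75 to 2.75, edgeR adjusted p = 1.56e-05), and removal of the trend left it at 2.29. Leaving out any library left it between 1.99 and 2.40.

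CEBPB, a leucine zipper factor of inflammation and stress, had 120, 121 and 115 CPM with talazoparib, against 86.5, 78.0 and 77.4 CPM in control, and rose by 0.56 ± 0.08 (edgeR adjusted p = 9.21e-05). ATF5, a relative of ATF4, had 31.7, 36.3 and 30.1 CPM with talazoparib, against 25.8, 19.9 and 23.9 CPM in control (0.50 ± 0.12, edgeR adjusted p = 0.00350). Their transcripts have 66.2% and 60.0% GC, and trend-removed neither passed (0.03 for CEBPB, 0.07 for ATF5). CEBPB-AS1, an antisense gene that covers 70.5% of CEBPB, had 126, 75 and 70 counts with talazoparib, against 70, 50 and 55 in control, and reads of the pair cannot be separated unless strand was used. CEBPG, which pairs with ATF4 on DNA, was the transcription factor that fell: 36.7, 29.8 and 40.4 CPM with talazoparib, against 48.8, 56.4 and 55.6 CPM in control (-0.59 ± 0.11, edgeR adjusted p = 8.77e-04, trend-removed -0.20, adjusted p = 0.0366). ATF3, induced early in many stresses, had 17.5, 18.3 and 16.2 CPM with talazoparib, against 15.1, 15.8 and 15.2 CPM in control. The libraries did not overlap, yet the change of 0.17 (95% confidence interval -0.07 to 0.41) did not pass.

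**Figure D3:**
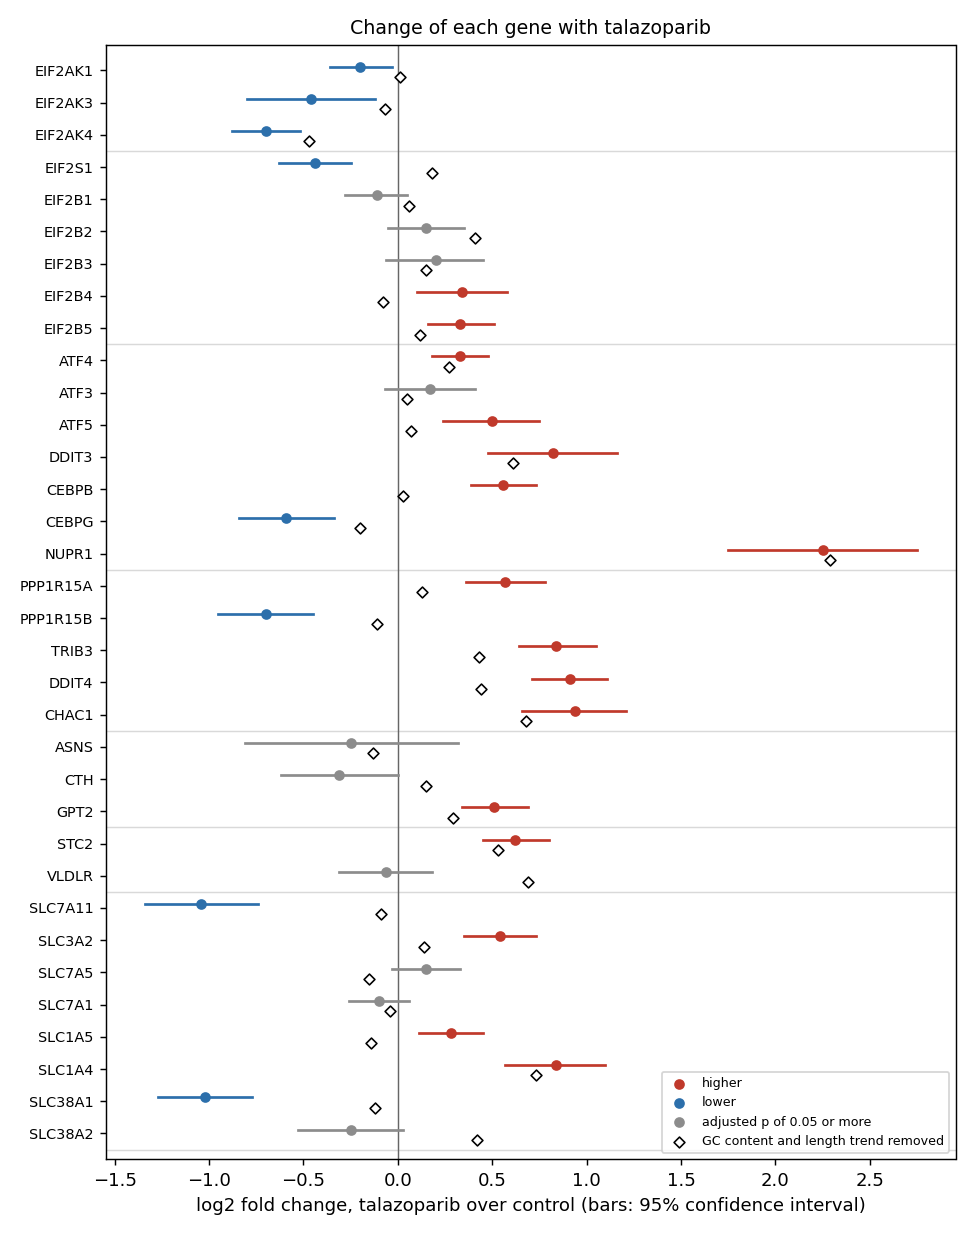
Log2 fold change (talazoparib over control) of the 34 genes with its 95% confidence interval, coloured by call, and the trend-removed value as an open diamond; grey lines separate the roles. For NUPR1 the 2 values nearly coincide (2.25 and 2.29), while for SLC7A11 they are -1.04 and -0.09.

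The 5 feedback regulators and related genes included 4 rises and 1 fall, where 26.8% of all genes tested rose and 29.9% fell. Trend-removed, 3 of the 5 were higher and 0 lower, against 22.0% and 22.2% of all genes. DDIT4, which encodes the mTORC1 inhibitor REDD1, had 58.6, 62.0 and 55.8 CPM with talazoparib, against 34.3, 30.6 and 29.0 CPM in control (0.91 ± 0.09, edgeR adjusted p = 1.55e-05). TRIB3, a pseudokinase that dampens ATF4 and CHOP, had 101, 113 and 97.3 CPM with talazoparib, against 64.6, 53.1 and 55.5 CPM in control (0.84 ± 0.09, edgeR adjusted p = 2.51e-05). CHAC1, an enzyme that degrades glutathione, had 18.9, 20.6 and 18.7 CPM with talazoparib, against 11.2, 8.81 and 10.4 CPM in control (0.94 ± 0.13, edgeR adjusted p = 7.87e-05). For each of these the groups stood clear of each other, and all 3 were higher trend-removed, at 0.44 for DDIT4, 0.43 for TRIB3 and 0.68 for CHAC1. With GENCODE exon lengths CHAC1 was at 0.41.

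The regulatory subunits of the phosphatase that reverses eIF2 phosphorylation moved in opposite directions. PPP1R15A, which encodes the stress-induced subunit GADD34, had 69.9, 78.0 and 66.8 CPM with talazoparib, against 53.6, 43.6 and 47.9 CPM in control (0.57 ± 0.10, edgeR adjusted p = 4.07e-04). PPP1R15B, the constitutive subunit CReP, had 31.0, 26.8 and 37.2 CPM with talazoparib, against 48.6, 54.3 and 51.9 CPM in control (-0.70 ± 0.11, edgeR adjusted p = 2.92e-04). Neither gene overlapped between the groups. The ratio of their FPKM was 6.61, 8.55 and 5.27 with talazoparib, against 3.24, 2.36 and 2.71 in control. Their transcripts have 58.8% and 43.4% GC, and trend-removed neither passed with the deposited lengths (0.13 and -0.11). With GENCODE exon lengths PPP1R15B was lower (-0.28, adjusted p = 0.00963) and PPP1R15A did not pass (0.15).

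Of the target enzymes, GPT2, the mitochondrial alanine transaminase, had 135, 144 and 133 CPM with talazoparib, against 105, 89.9 and 94.0 CPM in control, and rose in both fits (0.51 ± 0.08, edgeR adjusted p = 2.33e-04, trend-removed 0.29). CTH, which makes cysteine from cystathionine, had 7.39, 6.11 and 7.63 CPM with talazoparib, against 8.56, 8.88 and 8.73 CPM in control. Its libraries lay apart, but the change did not pass (-0.31, edgeR adjusted p = 0.0812).

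ASNS, the asparagine synthetase gene and a classical ATF4 target, had 1.15, 1.14 and 1.22 CPM with talazoparib, against 1.68, 1.07 and 1.43 CPM in control, and did not pass (-0.25, 95% confidence interval -0.81 to 0.32). In FPKM it stood lowest of the 34 genes with talazoparib (0.352) and second to NUPR1 from the bottom in control (0.440). The level of ASNS mRNA is uncertain in these counts. In RefSeq the long noncoding gene CZ1P-ASNS covers 99.4% of its span, and that gene, added here after its values were seen, had 394, 437 and 308 counts with talazoparib, against 289, 241 and 264 in control. CZ1P-ASNS rose (0.59 ± 0.17, edgeR adjusted p = 0.00978), a call lost without control replicate 2 (0.48, adjusted p = 0.0673) or control replicate 3 (0.55, adjusted p = 0.0557; 0.46 to 0.74 over all removals). The sources used here do not say how reads shared by these genes were counted.

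STC2, a secreted glycoprotein of the stress response, had 347, 372 and 312 CPM with talazoparib, against 221, 215 and 234 CPM in control. It was among the most abundant of these genes and rose in both fits (0.62 ± 0.08, edgeR adjusted p = 6.31e-05, trend-removed 0.53). VLDLR, a lipoprotein receptor induced through PERK and ATF4, had 19.2, 18.4 and 20.7 CPM with talazoparib, against 19.4, 18.9 and 22.8 CPM in control. The groups overlapped and the change did not pass (-0.06), whereas trend-removed it was higher (0.69, adjusted p = 2.48e-04); its deposited length of 9213 nt is among the longest here.

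The 8 amino acid transporters went both ways, with 3 rises, 2 falls and 3 that did not pass, and a median log2 fold change of 0.02. Over all genes tested 26.8% rose and 29.9% fell. Trend-removed, 3 of the 8 were higher and 2 lower, where 22.0% and 22.2% of all genes were. SLC3A2, the CD98 heavy chain that carries several light-chain transporters to the membrane, had 442, 477 and 413 CPM with talazoparib, against 342, 289 and 288 CPM in control (0.54 ± 0.09, edgeR adjusted p = 2.92e-04, trend-removed 0.14, adjusted p = 0.0312). Neither of its light chains among these genes passed as higher. SLC7A5, the large neutral amino acid transporter LAT1, had 681, 730 and 621 CPM with talazoparib, against 650, 581 and 600 CPM in control, with overlapping groups (0.15, edgeR adjusted p = 0.137). Trend-removed it passed as lower (-0.15, adjusted p = 0.0209), and with the trend over length alone removed it passed as higher (0.37, adjusted p = 0.00459). SLC7A11 (chromosome 4, 138164097 to 138242349, minus strand), the cystine importer xCT, had 26.9, 20.5 and 25.0 CPM with talazoparib, against 44.4, 59.9 and 44.8 CPM in control. Its level in every talazoparib library was well below that of any control library (-1.04 ± 0.14, edgeR adjusted p = 8.72e-05). Its transcript has the lowest GC content of the 34 (35.4%) and 9742 nt, and trend-removed it did not pass (-0.09, adjusted p = 0.466). The FPKM ratio of SLC7A5 to SLC3A2 was 0.701, 0.696 and 0.683 with talazoparib, against 0.866, 0.915 and 0.947 in control, and that of SLC7A11 to SLC3A2 was 0.0153, 0.0107 and 0.0151, against 0.0326, 0.0519 and 0.0389 in control. Neither ratio overlapped between the groups.

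SLC1A4, which carries alanine, serine and cysteine, had 24.8, 22.2 and 19.6 CPM with talazoparib, against 12.9, 13.0 and 11.4 CPM in control, and was higher in both fits (0.84 ± 0.12, edgeR adjusted p = 1.47e-04, trend-removed 0.73). Its abundant relative SLC1A5, a glutamine transporter, had 464, 488 and 438 CPM with talazoparib, against 413, 356 and 377 CPM in control. It rose by 0.28 ± 0.08 (edgeR adjusted p = 0.00931), lost that call without control replicate 3 (0.24), and was lower trend-removed (-0.14, adjusted p = 0.0188). SLC38A1, a neutral amino acid transporter, had 103, 87.1 and 95.5 CPM with talazoparib, against 158, 216 and 205 CPM in control (-1.02 ± 0.11, edgeR adjusted p = 3.21e-05, trend-removed -0.12, not past the test). With GENCODE exon lengths it passed as lower (-0.21, adjusted p = 0.0121). SLC38A2, its relative that cells induce when amino acids are short, had 253, 209 and 293 CPM with talazoparib, against 252, 334 and 311 CPM in control. Its groups overlapped and it did not pass (-0.25, edgeR adjusted p = 0.113), but trend-removed it was higher (0.42, adjusted p = 5.43e-05). SLC7A1, the carrier of cationic amino acids, had 218, 200 and 195 CPM with talazoparib, against 216, 224 and 218 CPM in control (-0.10, edgeR adjusted p = 0.254).

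**Figure D4:**
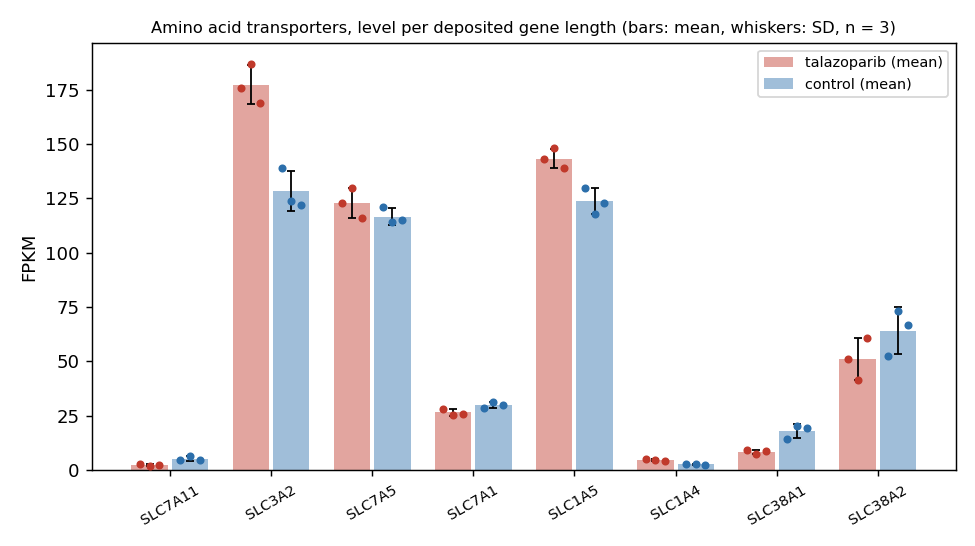
FPKM of the 8 amino acid transporters, talazoparib (red) left of control (blue); bars are means, whiskers SD over 3 libraries and points the libraries. SLC3A2, SLC1A5 and SLC7A5 are the most abundant in each group, at 177, 143 and 123 FPKM with talazoparib and 129, 124 and 117 FPKM in control.

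In FPKM, which rests on the deposited lengths, the same 3 transporters led all 34 genes in each group, in the order SLC3A2, SLC1A5, SLC7A5. With talazoparib they had 177 ± 8.76, 143 ± 4.44 and 123 ± 7.09 FPKM (SD, n = 3). In control they had 129 ± 9.51, 124 ± 5.92 and 117 ± 3.65 FPKM, where the first pair of neighbours differed by less than their SDs. Per kilobase of GENCODE exon bases their order was the reverse: SLC7A5, SLC1A5 and SLC3A2 had 139, 135 and 83.5 CPM (unscaled) with talazoparib, and 132, 117 and 60.6 in control. The level of ATF4 also depends on the length: it had 55.9 FPKM with talazoparib and 46.7 FPKM in control, while per kilobase of GENCODE exon bases it had 171 ± 4.10 CPM (unscaled) with talazoparib and 143 ± 2.93 in control (SD, n = 3 each), above every other gene of the list in each group.

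ATF4 acts through C/EBP-ATF response elements, whose core is often written TGATGNAA. There were 30 genes with a RefSeq promoter entry (GRCh38.p14, 250 bases before to 50 after each start, 47 windows in all). Of these, 10 held this core on either strand in some window, against 4.46% of all 27305 genes with an entry. By window the share was 21.3%, against 3.62% of all 35116 windows. The form TGATGCAA, a subset of these matches, was held by 5 of the genes, against 1.08% of all genes with an entry. By window the share was 10.6%, against 0.866% of all windows. The genes were listed for their place in this response, so these shares are no test of control by ATF4. EIF2AK1, NUPR1, GPT2 and SLC7A11 had no entry. The 7 matches that begin 7 or more bases before the start site are printed to show which of these genes carry a core that begins there. They are given 5′ to 3′ on the strand of the gene, with the core in capitals. They lie in ATF3 (chr1:212565205-212565234), CEBPG (chr19:33374060-33374089), PPP1R15B (chr1:204412026-204412055, minus strand), CHAC1 (chr15:40953251-40953280, core on the opposite strand), ASNS (chr7:97872458-97872487, minus strand), SLC1A5 (chr19:46784893-46784922, minus strand) and SLC1A4 (chr2:64989381-64989410, core on the opposite strand).
ATF3: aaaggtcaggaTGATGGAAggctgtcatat
CEBPG: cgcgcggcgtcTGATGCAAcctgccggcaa
PPP1R15B: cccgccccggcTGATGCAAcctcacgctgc
CHAC1: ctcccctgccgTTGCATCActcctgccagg
ASNS: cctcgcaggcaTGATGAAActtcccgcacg
SLC1A5: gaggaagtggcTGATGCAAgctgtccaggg
SLC1A4: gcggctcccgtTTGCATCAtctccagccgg
The core in SLC1A4 begins 7 bases before the start, and its last base is the start itself. Of the remaining matches, that in SLC38A1 begins 4 bases before the start and also runs across it, and those in SLC3A2 and SLC7A1 lie after the start. Genes that carry the core did not move together: CHAC1, SLC1A4, SLC1A5 and SLC3A2 rose, CEBPG, PPP1R15B and SLC38A1 fell, and ATF3, ASNS and SLC7A1 did not pass. A match is only a string of letters in this window, and binding was not measured.

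Other genes of the pathway were read from 3 further lists. Over all genes tested, 26.8% rose and 29.9% fell, and trend-removed 22.0% were higher and 22.2% lower. Of 14 genes for eIF2 subunits, eIF2 regulators and other translation factors (the eIF2 regulator list), 2 rose and 8 fell. Their median log2 fold change was -0.52 and their median GC content 42.6%. The beta and gamma subunits of eIF2 fell: EIF2S2 had 66.7, 59.3 and 69.4 CPM with talazoparib, against 127, 142 and 154 CPM in control (-1.12 ± 0.09, edgeR adjusted p = 7.64e-06, trend-removed -0.88), and EIF2S3 was at -0.59 (trend-removed -0.16). The initiation factor EIF2A (-1.80, trend-removed -1.14) and IMPACT, an inhibitor of GCN2 (-0.81, trend-removed -0.19), were also lower, with edgeR adjusted p of 1.29e-05 and 0.00116. Trend-removed, 4 of the 14 were higher and 5 lower.

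Among 22 further ATF4 and CHOP targets 21 were tested, of which 12 rose and 6 fell (median 0.32). Trend-removed, 12 were higher and 4 lower (median 0.25). The shares over all genes tested were 26.8% and 29.9%, and trend-removed 22.0% and 22.2%. SESN2, a stress-induced inhibitor of mTORC1, had 28.1, 29.0 and 26.8 CPM with talazoparib, against 12.6, 13.5 and 13.3 CPM in control (1.09 ± 0.10, edgeR adjusted p = 1.17e-05, trend-removed 0.71). The autophagy receptor SQSTM1 also rose (0.67, trend-removed 0.32). The tRNA exporter XPOT had 118, 97.6 and 122 CPM with talazoparib, against 228, 278 and 275 CPM in control (-1.21 ± 0.10, edgeR adjusted p = 9.16e-06, trend-removed -0.49), and the asparaginyl-tRNA synthetase NARS1 fell with it (-1.05, trend-removed -0.77).

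Of 18 further amino acid transporters 17 were present and 10 tested, with 3 rises and 5 falls (median -0.42). The cationic amino acid transporter SLC7A2 had 7.47, 6.70 and 7.18 CPM with talazoparib, against 15.7, 21.4 and 18.3 CPM in control (-1.38 ± 0.14, edgeR adjusted p = 1.60e-05, trend-removed -0.57). SLC7A6, another light chain of SLC3A2, fell (-0.75, trend-removed -0.41), as did the lysosomal SLC36A1 (-0.63, trend-removed -0.24), while the amino acid transporter SLC43A2 rose (0.55, trend-removed 0.51). Trend-removed, 2 of the 10 were higher and 4 lower. Over all genes these shares were 22.0% and 22.2%, and without trend removal 26.8% rose and 29.9% fell.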

How the data were processed

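Total RNA was extracted with TRIzol and libraries were made with a VAHTS Universal V6 kit, per the labels' protocols. Tools named, per the submitters' processing notes, are HISAT2, HTSeq, Cufflinks and Trimmomatic, with the build GRCh38. Their versions, the annotation and the strand setting are not stated there. The authors deposited whole-number counts per gene symbol and FPKM values. The deposited FPKM equal counts over a gene length and the column total, and the implied lengths are whole within 0.01 nt for 99.95% of genes with a count.

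Counts were tested with edgeR 4.0.16 (R 4.3.3): filterByExpr with its minimum count of 10, TMM scaling, quasi-likelihood test with robust dispersion, talazoparib over control, all 6 libraries, Benjamini-Hochberg over all genes tested. CPM use TMM-scaled library sizes. Errors are SD over 3 libraries, or SE, the absolute log2 fold change over the square root of F. GC content is that of the longest protein-coding transcript in GENCODE release 29, or of the longest transcript where a gene has no protein-coding one. To remove the GC and length trend, each library's deviation in log2 CPM (prior count 2) was fitted on natural splines of GC content and log2 length (5 degrees of freedom) and entered as an offset. The test was checked on simulated counts with known changes and no GC trend. With a GC trend simulated, the test was run with and without trend removal. Only the fit with the trend removed had to meet limits on genes recovered and false calls. The fit without trend removal was held to no such limit on those data, and its outcome is not given here. All 34 genes are named, and of each further list the 4 with the smallest adjusted p, to which EIF2AK2 was added. The genes, lists and tests were chosen with earlier results of these data known. Alternatives were DESeq2 1.42.0, limma 3.58.1 (voom, and on log2 FPKM), other scalings and filters, a replicate block and removal of each library; the fit with GENCODE exon lengths was added after seeing the data.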

Additional observations from a re-analysis of the deposited data

How the results depend on the processing

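The calls of the 34 genes changed most when the GC and length trend was removed. Over 9 other alternatives, 16 genes rose in each and 7 to 11 fell, and 30 genes had the same call in all; leaving out single libraries gave 14 to 17 rises and 6 to 9 falls. Trend-removed, 4 genes fell, against 6 with GENCODE exon lengths and 7 with length alone. Signs reversed for EIF2AK1 (0.01), EIF2S1 (0.18), EIF2B1 (0.06), EIF2B4 (-0.08), CTH (0.15), VLDLR (0.69), SLC7A5 (-0.15), SLC1A5 (-0.14) and SLC38A2 (0.42); with GENCODE exon lengths for EIF2S1 (0.22), EIF2B1 (0.12), ATF4 (-0.06), CTH (0.02), VLDLR (0.63), SLC7A5 (-0.25), SLC1A5 (-0.16) and SLC38A2 (0.48); and with length alone for VLDLR (0.45) and SLC7A1 (0.31). The eIF2 regulator list had 4 rises and 5 falls trend-removed, 4 and 4 with exon lengths, and 1 to 2 rises when libraries were left out, 1 without control replicate 2 or 3. The further transporters had 3 falls with length alone and with exon lengths. The cause was not tested.

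The labels do not say whether the replicate numbers pair cultures. Same-numbered libraries deviated from their group means with correlations of -0.09, -0.17 and 0.00. The highest of all was 0.19, between talazoparib replicate 2 and control replicate 1. Such correlations cannot settle pairing, because the deviations within a group of few libraries are tied to each other. With the replicate number as a block, 3419 genes rose and 4161 fell, 16 of the 34 rose and 7 fell, and EIF2AK1 lost its call (adjusted p = 0.103). That call was also lost with DESeq2 size factors (0.0564), no filter (0.0593), a filter at 1 CPM (0.0522) and DESeq2 (0.0756). ASNS, near 1 CPM, is the gene whose depth limits precision most.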
